A study of Mus musculus with 18 samples.

Results

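Integrins and the talin, kindlin and ILK adaptors that bind their cytoplasmic tails were examined as 1 gene family, taken as a list of 32 genes. Of these, 31 were among the 30583 genes of the count table: 8 leukocyte integrins, 18 matrix-binding integrins and 5 adaptors. Fermt1, the epithelial kindlin, was not analysed here. All 31 passed the filter on low counts. RNA was sequenced from left ventricular myocardium of 18 male mice of the strain given as C57BL/6JR, aged 12 weeks, with 1 library per mouse and 3 mice per group. In 5 groups the left anterior descending coronary artery was tied under pentobarbital, and the infarcted ventricle was taken after 10 min or after 1, 6, 24 or 72 h. The sham group, given as 0 h, had the same operation with the thread passed and left untied. No gene was deleted and no drug was tested in any group. The series asks how expression changes as an infarct progresses, and the comparison drawn here is between integrins that leukocytes use and integrins that bind the extracellular matrix.

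An integrin is a pair of transmembrane chains, 1 alpha and 1 beta, and the pair decides the ligand. The beta2 integrins (Itgb2 with Itgal, Itgam, Itgax or Itgad) and the alpha4 and beta7 integrins let leukocytes adhere to vessel walls and enter tissue, while most beta1 and alphav integrins anchor cells to collagen, laminin, fibronectin or vitronectin. Talin and kindlin bind the beta tail and switch the receptor to its high-affinity form; talin also ties it to actin, and ILK is a scaffold beside them. In the heart, cardiomyocytes carry alpha7 beta1 as a main laminin receptor, whereas fibroblasts and leukocytes bring their own sets.

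Promoter sequence is shown for 3 members on which the results turn. Itgam and Itgax are neighbours on chromosome 7, 11055 bp apart, and both rose from 6 h, and Itga5 had the largest rise among matrix-binding integrins at 6 h. The 250 bases before each RefSeq gene start (GRCm38.p6) are printed 5′ to 3′ on the gene's strand: chr7:128062390-128062639 (plus) for Itgam, chr7:128129300-128129549 (plus) for Itgax and chr15:103366792-103367041 (minus) for Itga5. Capitals mark GAGGAA or its reverse complement TTCCTC, the core bound by the myeloid factor PU.1, and, in Itgax, a match to TGANTCA, the AP-1 motif.
Itgam: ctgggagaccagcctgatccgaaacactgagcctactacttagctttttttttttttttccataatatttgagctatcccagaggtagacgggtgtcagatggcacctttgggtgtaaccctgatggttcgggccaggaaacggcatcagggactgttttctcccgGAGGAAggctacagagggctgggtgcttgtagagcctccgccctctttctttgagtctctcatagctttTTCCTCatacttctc
Itgax: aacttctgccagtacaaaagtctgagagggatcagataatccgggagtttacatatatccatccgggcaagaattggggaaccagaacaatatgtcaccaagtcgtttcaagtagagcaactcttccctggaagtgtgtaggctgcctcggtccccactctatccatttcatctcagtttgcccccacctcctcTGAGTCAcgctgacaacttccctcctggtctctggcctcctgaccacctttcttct
Itga5: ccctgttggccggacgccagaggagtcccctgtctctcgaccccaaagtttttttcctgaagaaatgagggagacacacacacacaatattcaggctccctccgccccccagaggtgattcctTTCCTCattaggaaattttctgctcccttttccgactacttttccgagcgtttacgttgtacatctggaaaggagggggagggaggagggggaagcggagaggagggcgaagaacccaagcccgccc
GAGGAA stood on either strand of 23.3% of all 32851 promoter windows of this length and TGANTCA in 6.75%. Among the 22 members with an entry in the promoter table, GAGGAA was found in 1 of 4 leukocyte integrin windows, 7 of 16 matrix-binding windows (some genes have more than 1 start) and 1 of 5 adaptor windows. The match to TGANTCA in Itgax, whose first base is 56 bases before the start, was the only one in the members' windows. These are matches of letters in a short window, and no binding was measured.

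Libraries held 18.2 to 25.1 M counts. The labels also name cardiomyocytes as cell type, but markers of many cell types were present, so the values are those of whole tissue. Summed over 7 cardiomyocyte markers, the level was 56280 to 61270 CPM (counts per M counts, with M for mega, scaled by TMM) in sham, 24370 to 38130 CPM at 24 h and 14890 to 19600 CPM at 72 h. The 3 general leukocyte markers summed to 32.1 to 38.9 CPM in sham and 432.5 to 461.5 CPM at 72 h, and 7 monocyte and macrophage markers to 185.7 to 206.6 CPM and 2687 to 3489 CPM. Neutrophil markers (7 genes) summed to 2.31 to 3.63 CPM in sham, with Ly6g at 0, to 103.1 to 760.5 CPM at 6 h, 36.2 to 664.2 CPM at 24 h and 51.4 to 61.5 CPM at 72 h. The libraries labelled 6 h replicate 1 and 24 h replicate 3 stood apart. The former held 151 CPM of 3 atrial markers against 1.6 and 2.01 CPM in its group, and these libraries had the highest neutrophil sums of the series.

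With all 18 libraries fitted together, no member was called at 10 min or at 1 h, and calls began at 6 h. A gene was called when its edgeR adjusted p was under 0.05 over 16311 genes. At 10 min and 1 h, 0 of 31 members were called by edgeR or by DESeq2, against 0.0736% (0.0307% higher, 0.0429% lower) and 0.294% (0.288% higher, 0.00613% lower) of all genes; 4 and 3 members, and 1144 and 899 of all genes, had an unadjusted p under 0.05. An edgeR fit of only the 6 libraries compared called 3 members higher at 10 min (Itgb7, Itga6 and Itgb3) and 0 at 1 h, against 2.48% and 1.31% of all genes. At 6 h, 15 members were called, 11 higher and 4 lower, against 28.4% of all genes (16.3% higher, 12.2% lower). At 24 h there were 20, of which 16 were higher and 4 lower, against 43.8% (23.7% higher, 20.2% lower). At 72 h there were 24, with 18 higher and 6 lower, against 66.4% (34.2% higher, 32.2% lower). The median log2 fold change over the members was 0.49, 0.66 and 0.79 at these times, beside -0.01, 0.01 and 0.03 over all genes. All comparisons with sham use the same 3 sham libraries. No sham group was taken at the later times, so ligation and time since the operation cannot be told apart.

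Against sham, leukocyte integrins were called higher and none was called lower. Of 8, 5 were higher at 6 h, 6 at 24 h and 7 at 72 h, with median log2 fold changes of 1.58, 2.71 and 3.67. Of 18 matrix-binding integrins, 4 rose and 4 fell at 6 h (median 0.06), 7 rose and 4 fell at 24 h (0.29), and 9 rose and 4 fell at 72 h (0.52). The share that fell was 22.2% at each time, beside 12.2%, 20.2% and 32.2% of all genes, and the share that rose was 22.2%, 38.9% and 50.0%, beside 16.3%, 23.7% and 34.2%. Of 5 adaptors, 2 rose at 6 h and 3 at 24 h, while 2 rose and 2 fell at 72 h. Without 6 h replicate 1 and 24 h replicate 3, leukocyte integrins gave 4, 6 and 7 increases, and matrix-binding integrins gave 4 increases and 6 decreases, 6 and 4, and 9 and 4; adaptors gave 2, 2 and 2 increases, with 2 decreases at 72 h. The difference between the classes was not tested. In whole tissue, fewer cells of a type and less RNA per cell cannot be told apart.

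The decreases at 72 h depend on scaling. With library size scaling, under which the median of all genes was 0.61 at 72 h, 22 members were higher and 0 lower, against 58.1% and 14.6% of all genes, and the 6 members that fell (Itga1, Itga7, Itga8, Itgb6, Tln2 and Fermt2) were not called. They were also not called by limma on log2(FPKM + 1), but FPKM is likewise scaled by library total, so this is not a separate check of the scaling. Every decrease at 72 h below is relative to the median gene under TMM.

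**Figure D1:**
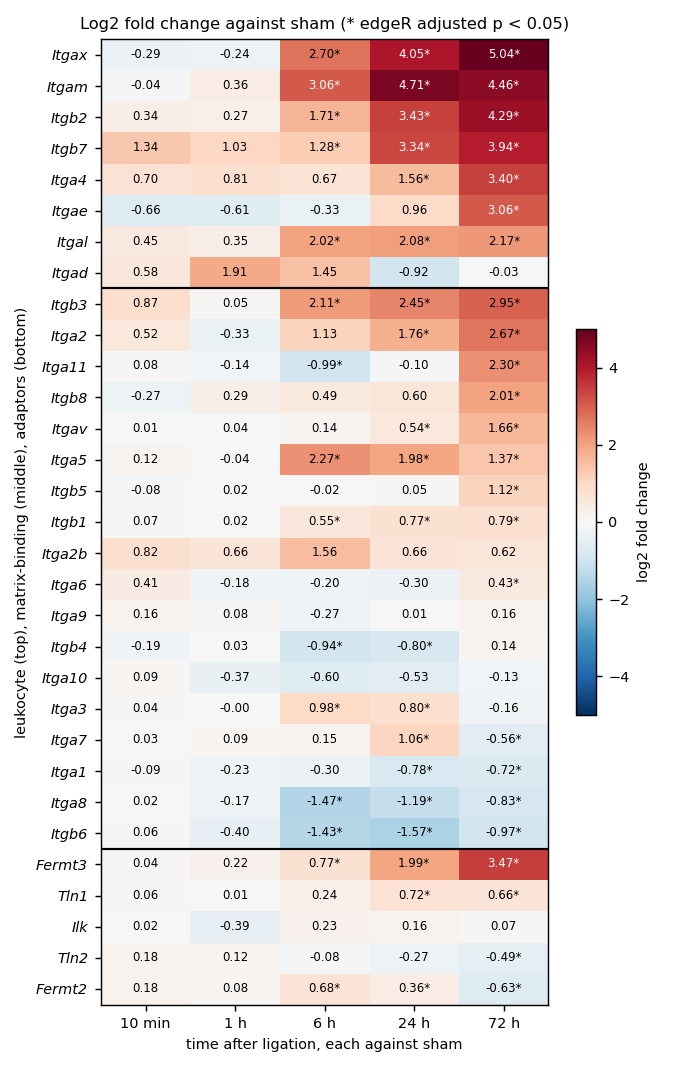
Log2 fold change of the 31 members against sham at 5 times (columns), with leukocyte integrins above, matrix-binding integrins in the middle and adaptors below; colour and number give the fitted value and an asterisk an edgeR adjusted p under 0.05. Itgax reached 5.04 at 72 h, whereas Itgb6 stood at -0.97, and no cell at 10 min or 1 h carries an asterisk.

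Itgb2, the shared beta2 chain, had the highest level per length among leukocyte integrins in every group ranked (sham, 6 h, 24 h and 72 h). Its lead over Itgam is uncertain, because 3450 of the 5024 exon bases taken as the Itgam length are shared with another gene. Itgb2 (ENSMUSG00000000290, chromosome 10, 77530252 to 77565708, GENCODE M21 on GRCm38) was counted at 4.9, 6.02 and 6.04 CPM in sham and from 6.33 to 8.53 CPM at 10 min and 1 h. It reached 29.1, 16.8 and 10.1 CPM at 6 h, 40.3, 34 and 109.6 CPM at 24 h and 103, 123 and 105 CPM at 72 h. All libraries from 6 h on were above all sham libraries, and 24 h replicate 3 stood at the level of 72 h. The log2 fold change was 1.71 ± 0.44 (SE; edgeR adjusted p = 0.0108) at 6 h, 3.43 ± 0.45 (SE; edgeR adjusted p = 6.08e-05) at 24 h and 4.29 ± 0.46 (SE; edgeR adjusted p = 1.46e-06) at 72 h. Without 6 h replicate 1 the Itgb2 call at 6 h was lost, and without 24 h replicate 3 the value at 24 h was 2.71.

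Itgam and Itgax, the alpha chains of the complement receptors of neutrophils, monocytes and macrophages, rose most of all members but with different courses. Itgam (ENSMUSG00000030786, chromosome 7, 128062640 to 128118491) was counted at 1.82, 2.13 and 2.09 CPM in sham, 23.7, 18 and 8.84 CPM at 6 h, 29.3, 23.3 and 106 CPM at 24 h and 38.7, 51 and 43.8 CPM at 72 h. The fitted log2 fold change was 3.06 ± 0.60 (SE; edgeR adjusted p = 0.00215) at 6 h, 4.71 ± 0.60 (SE; edgeR adjusted p = 5.94e-05) at 24 h and 4.46 ± 0.60 (SE; edgeR adjusted p = 1.61e-05) at 72 h. The 10 min and 1 h libraries (1.45 to 3.19 CPM) overlapped sham. The step from 6 h to 24 h (1.65 ± 0.49, SE, edgeR adjusted p = 0.0231) rested on 24 h replicate 3: without it the value was 0.65 and was not called, and it was also lost without 6 h replicate 2 or 6 h replicate 3. From 24 h to 72 h Itgam changed by -0.25 (edgeR adjusted p = 0.694) with all libraries and by 0.75 without 24 h replicate 3 (edgeR adjusted p = 0.0382), so that library sets the direction.

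At 6 h and at 24 h the 3 libraries stood in the same order for Itgam as for the summed neutrophil markers. These were 760.5, 269.4 and 103.1 CPM at 6 h and 156.9, 36.2 and 664.2 CPM at 24 h. That order was not particular to neutrophils. Sums of general leukocyte, monocyte and macrophage, and platelet and megakaryocyte markers shared it at both times. Monocyte and macrophage sums were 414.9, 260.0 and 174.9 CPM at 6 h and 500.3, 497.1 and 793.8 CPM at 24 h. Sums of T, B and NK cell markers did not share it at 24 h. All 7 neutrophil markers were called higher at 6 h, 6 at 24 h and 5 at 72 h. The part of any of these cell types in the Itgam result was not tested. Itgam shares 3450 of its 5024 exon bases with Gm49368, a gene on the same strand that received 19 counts in all libraries together. How reads in shared bases were assigned is not given in the sources used here. Levels of Itgam per length use all 5024 bases, and their size is therefore uncertain.

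Itgax (ENSMUSG00000030789, chromosome 7, 128129547 to 128150657) was low at first, with 7 to 12 counts per sham library. Its values were 0.607, 0.363 and 0.444 CPM in sham and 0.117 to 0.725 CPM at 10 min and 1 h. It reached 5.25, 2.3 and 1.81 CPM at 6 h, 6.65, 6.72 and 10.4 CPM at 24 h and 12.8, 18.2 and 16 CPM at 72 h. Each of these groups lay above the one before it with no overlap. Its log2 fold change was 2.70 ± 0.45 (SE; edgeR adjusted p = 0.000355) at 6 h, 4.05 ± 0.43 (SE; edgeR adjusted p = 3.21e-06) at 24 h and 5.04 ± 0.42 (SE; edgeR adjusted p = 1.64e-08) at 72 h, the largest of any member. The further step from 24 h to 72 h was 0.99 ± 0.31 (SE; edgeR adjusted p = 0.0143), lost without 24 h replicate 1 or 72 h replicate 2. Itgax is often used as a dendritic cell marker. The sum of 5 other dendritic cell markers was 26.4 to 28.2 CPM in sham and 22.0 to 22.8 CPM at 72 h, where 3 were higher and 2 lower. Zbtb46 made up most of that sum, with means of 23.0 CPM in sham and 12.7 CPM at 72 h. Between the same groups Clec9a went from 4.07 to 2.51 CPM. Flt3 went from 0.0851 to 2.79 CPM, Cd209a from 0.0999 to 3.63 CPM and Xcr1 from 0.325 to 0.865 CPM. All 7 monocyte and macrophage markers were higher at 24 h and at 72 h.

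Itgal, the LFA-1 alpha chain shared by lymphocytes and myeloid cells, was called at all 3 later times, with no called step between them. It was counted at 1.11, 2.07 and 1.73 CPM in sham, 13.9, 3.44 and 2.82 CPM at 6 h, 4.88, 3.01 and 13.2 CPM at 24 h and 6.12, 9.65 and 6.46 CPM at 72 h. The highest values at 6 h and 24 h were those of the libraries that stood apart. The fitted log2 fold change was 2.02 ± 0.61 (SE; edgeR adjusted p = 0.0236) at 6 h, 2.08 ± 0.61 (SE; edgeR adjusted p = 0.0126) at 24 h and 2.17 ± 0.60 (SE; edgeR adjusted p = 0.00519) at 72 h. Without 6 h replicate 1 the Itgal value at 6 h was 0.93 (edgeR adjusted p = 0.206), and without 24 h replicate 3 the value at 24 h was 1.26 (edgeR adjusted p = 0.104). Either call was also lost without sham replicate 1, and that at 6 h without sham replicate 3. The call at 72 h held in each of the 6 fits without 1 of the libraries compared. The 6 T cell markers summed to 1.33 to 2.28 CPM in sham and 5.02 to 7.41 CPM at 72 h. Both of the 2 that could be tested were called higher at 72 h (median log2 fold change 2.04). Cd4 made up most of the sum, with means of 1.15 CPM in sham and 3.81 CPM at 72 h. Cd3e, Cd3d and Cd3g were low, at 0.135, 0.103 and 0.196 CPM in sham and 0.42, 0.272 and 0.44 CPM at 72 h.

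Itga4, which with Itgb1 forms VLA-4, the receptor for Vcam1 and fibronectin on monocytes and lymphocytes, rose late. It was counted at 1.62, 1.66 and 1.78 CPM in sham, 4.29, 2.39 and 1.44 CPM at 6 h, 5.14, 3.61 and 6.34 CPM at 24 h and 15.6, 19.4 and 18.7 CPM at 72 h. The 6 h libraries overlapped sham, and the 24 h and 72 h libraries did not. Its log2 fold change was 0.67 at 6 h (not called), 1.56 ± 0.28 (SE; edgeR adjusted p = 0.000326) at 24 h and 3.40 ± 0.28 (SE; edgeR adjusted p = 7.85e-09) at 72 h. The libraries of 10 min and 1 h, 2.37 to 3.24 CPM, all lay above sham but were not called.

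Itgb7, the beta chain of the gut-homing and epithelium-binding integrins alpha4 beta7 and alphaE beta7, was highest at 24 h and 72 h. It was counted at 0.556, 0.726 and 0.622 CPM in sham, 1.12, 1.68 and 2.01 CPM at 10 min, 0.676, 1.66 and 1.63 CPM at 1 h, 2.8, 0.909 and 1.01 CPM at 6 h, 4.88, 6.08 and 8.46 CPM at 24 h and 8.96, 10.5 and 10.1 CPM at 72 h. The fitted log2 fold change was 3.34 ± 0.39 (SE; edgeR adjusted p = 7.57e-06) at 24 h and 3.94 ± 0.39 (SE; edgeR adjusted p = 8.4e-08) at 72 h, with no overlap with sham. The 10 min libraries also lay above all sham libraries, with 1.34 (edgeR adjusted p = 0.448), not called unless only those 6 libraries were fitted (edgeR adjusted p = 0.0354), and the 1 h libraries overlapped sham. The value at 6 h (1.28 ± 0.44, SE, edgeR adjusted p = 0.0359), no larger than that at 10 min, was 0.59 without 6 h replicate 1 and lost its call there and without any 1 of the sham libraries.

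Itgae, the alphaE chain of tissue-resident T cells and some dendritic cells, was at the limit of detection before 72 h. The sham libraries held 2 to 3 Itgae counts each (0.152, 0.104 and 0.0888 CPM), and the 24 h libraries 0.216, 0.212 and 0.258 CPM. At 72 h the values were 0.789, 1.03 and 1.15 CPM, all above every other library. The 72 h libraries held 95 Itgae counts against 7 in sham, a ratio of 8.71 at the scaled depths, with an exact 95% interval of 4.07 to 22.2 that covers counting error only, and the increase was called (edgeR adjusted p = 2.97e-05).

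Itgad, the alpha chain of the alphaD beta2 receptor of macrophages, was the leukocyte integrin that was not called against sham at any time. It had 158 counts over all 18 libraries, at 0.202, 0.363 and 0.178 CPM in sham, 1.26, 0.533 and 0.991 CPM at 1 h, 0.894, 0.478 and 0.692 CPM at 6 h, 0.0863, 0.141 and 0.155 CPM at 24 h and 0.347, 0.122 and 0.255 CPM at 72 h. All 1 h and 6 h libraries lay above all sham libraries without a call. The log2 fold change of Itgad at 1 h, 1.91, was the largest of any member at that time. Itgad fell from 6 h to 24 h (-2.37 ± 0.60, SE, edgeR adjusted p = 0.00646), and no other beta2 member was called lower in that step. Its exons overlap on the opposite strand with Cox6a2, a cardiac and skeletal muscle gene with 526068 counts, by 70 bases, and the strand setting of the counting is not given in the sources used here.

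**Figure D2:**
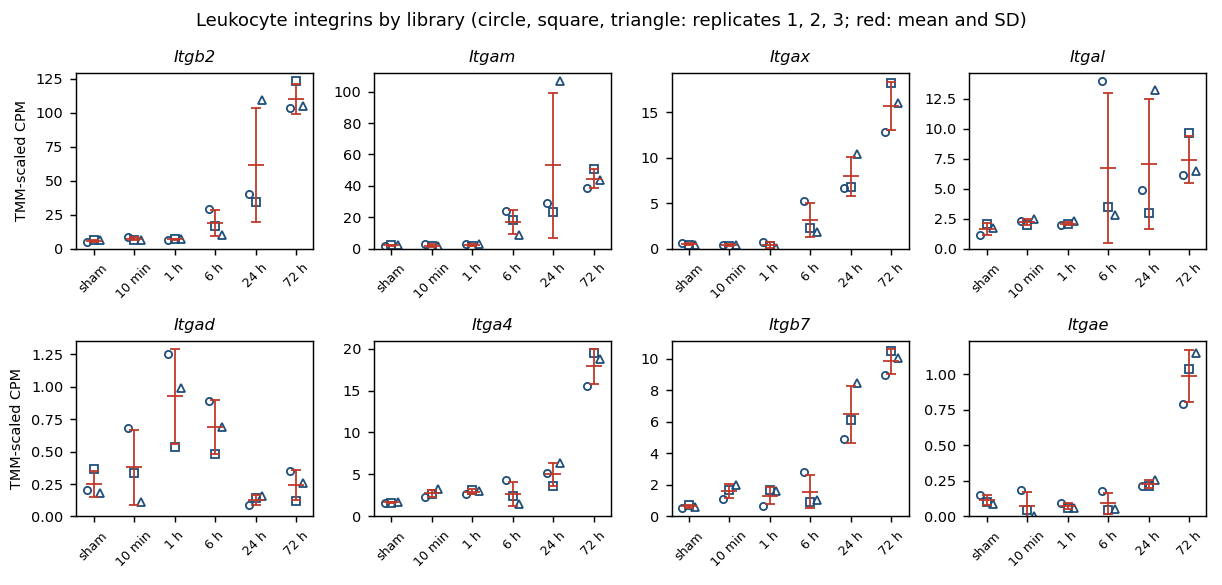
TMM-scaled CPM of the 8 leukocyte integrins (y axis, linear from 0) in the 18 libraries by group (x axis); symbols are replicates 1 to 3, and red marks the mean and SD of 3 mice. Itgam in 24 h replicate 3 stands at 106.5 CPM above the others of its group, whereas Itgax and Itga4 are highest at 72 h.

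Ratios between leukocyte integrins, and their ratios to a general leukocyte gene, differed between groups and not all in 1 direction. Per exon length, the ratio of Itgam to Itgal was 1.69 ± 0.41 (SD, n = 3) in sham, 9.51 ± 1.46 at 24 h and 8.01 ± 1 at 72 h, and neither later range overlapped sham. Set against Ptprc, the pan-leukocyte phosphatase CD45, the per-length level of Itgam was 1.17 ± 0.22 times that of Ptprc in sham, 5.74 ± 2.01 at 24 h and 1.79 ± 0.14 at 72 h. Itgb2 followed the same order, at 5.44 ± 1.19, 11.7 ± 1.73 and 7.31 ± 0.5. For Itgal the sham ratio of 0.732 ± 0.24 overlapped those of 6 h (0.944 ± 0.35) and 24 h (0.604 ± 0.17), and the ratio lay outside the sham range only at 72 h (0.227 ± 0.05), where the highest ratio (0.282) was below the lowest sham ratio (0.454). The Itgax ratio was 0.285 ± 0.07 in sham and 0.657 ± 0.07 at 72 h, without overlap. For Itga4 it was lower at 72 h, at 0.258 ± 0.01 against 0.353 ± 0.07 in sham, also without overlap. For Itgb7 it was 0.675 ± 0.12 and 0.724 ± 0.01, with overlap. The scarce Itgad and Itgae went from 0.157 to 0.0111 and from 0.0718 to 0.0435. Ratios within a library do not depend on scaling, and they were not tested. The size of the Itgam ratios depends on its uncertain length, whereas their relative change between groups does not.

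Among the 4 alpha chains of collagen receptors, 2 rose and 1 fell at 72 h. Itga11, the fibrillar collagen receptor of fibroblasts (ENSMUSG00000032243, chromosome 9, 62677826 to 62783982), was counted at 3.89, 2.07 and 3.73 CPM in sham, 1.97, 1.72 and 1.23 CPM at 6 h, 2.68, 3.5 and 2.84 CPM at 24 h and 13.6, 17.7 and 16.7 CPM at 72 h. It first fell, by 0.99 ± 0.25 (SE) on the log2 scale at 6 h (edgeR adjusted p = 0.00729), with all 6 h libraries below all sham libraries. It then rose, with 2.30 ± 0.22 (SE; edgeR adjusted p = 5.8e-08) at 72 h against sham and 2.40 ± 0.22 (SE; edgeR adjusted p = 1e-07) against 24 h. Its step from 6 h to 24 h, 0.88 ± 0.25 (SE; edgeR adjusted p = 0.0142), was lost without 6 h replicate 3 or 24 h replicate 2. The 4 myofibroblast markers, 2 of which (Postn and Col1a1) are also among the ligands below, were higher at 72 h and not called at 6 h, with sums of 173.2 to 253.5 CPM in sham, 146.1 to 206.5 CPM at 6 h and 5030 to 6448 CPM at 72 h. Their part in the Itga11 result was not tested.

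Itga2, the collagen receptor of platelets and epithelia, was low throughout. It was counted at 0.607, 0.467 and 0.711 CPM in sham, 2.74, 0.861 and 0.426 CPM at 6 h, 1.17, 1.24 and 3.87 CPM at 24 h and 2.4, 5.02 and 4.07 CPM at 72 h. The 72 h libraries lay above sham (2.67 ± 0.57, SE, edgeR adjusted p = 0.000542). The call at 24 h (1.76 ± 0.59, SE, edgeR adjusted p = 0.0228) rested on replicate 3, without which the Itga2 value was 1 (edgeR adjusted p = 0.179), and was also lost without sham replicate 1 or 2.

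Itga1, the collagen IV receptor of smooth muscle and other mesenchymal cells, fell while staying the most counted collagen receptor. It was at 86.5, 79 and 88.8 CPM in sham, 50.4, 54.9 and 42.7 CPM at 24 h and 46.8, 59.3 and 48 CPM at 72 h, with no overlap. The log2 fold change was -0.78 ± 0.11 (SE; edgeR adjusted p = 4.65e-05) at 24 h and -0.72 ± 0.11 (SE; edgeR adjusted p = 1.72e-05) at 72 h. Of 4 pericyte and smooth muscle markers, 3 were lower at either time. Their sums were 883.8 to 930.4 CPM in sham, 439.8 to 558.3 CPM at 24 h and 442.7 to 518.4 CPM at 72 h. Other lists fell too. Of 7 cardiomyocyte markers, 5 were lower at 24 h and 7 at 72 h, and of 4 endothelial markers 2 and 3. Of 4 fibroblast markers, 1 was higher and 2 lower at 24 h, and 4 were higher at 72 h. The part of these cell types in the Itga1 result was not tested. Itga10, the cartilage collagen receptor, ran from 0.656 to 1.79 CPM and was not called at any time.

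The laminin receptors moved at different times and in opposite directions. Itga7, the main laminin-binding chain of cardiomyocytes (ENSMUSG00000025348, chromosome 10, 128933818 to 128958282), was counted at 191, 189 and 187 CPM in sham and at 179 to 220.0 CPM from 10 min to 6 h. At 24 h it reached 379, 354 and 452 CPM, above every other library, and at 72 h it was at 133, 141 and 111 CPM, below every other library. The log2 fold change was 1.06 ± 0.10 (SE; edgeR adjusted p = 1.08e-06) at 24 h and -0.56 ± 0.10 (SE; edgeR adjusted p = 0.000102) at 72 h, and the step between them was -1.62 ± 0.10 (SE; edgeR adjusted p = 1.12e-09). With library size scaling the 72 h value of Itga7 against sham was 0.03 and not called. Cardiomyocyte markers went down at both times: 5 of 7 were lower at 24 h (median log2 fold change -0.79) and 7 of 7 at 72 h (-1.57).

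Itga3 and Itgb4, chains of the laminin-332 receptors of epithelia, moved in opposite directions and returned. Itga3 was counted at 13.8, 13.9 and 15.6 CPM in sham, 32.5, 22.1 and 30.9 CPM at 6 h, 21.1, 23.6 and 30.9 CPM at 24 h and 12.4, 15.1 and 11.2 CPM at 72 h. It was higher at 6 h (0.98 ± 0.16, SE, edgeR adjusted p = 0.000234) and at 24 h (0.80 ± 0.16, SE, edgeR adjusted p = 0.000648), and then fell (-0.96 ± 0.16, SE, edgeR adjusted p = 5.37e-05). At 72 h its value against sham was -0.16 and not called, but 0.42 and called with library size scaling (edgeR adjusted p = 0.0267). Itgb4 was at 4.4, 3.11 and 4.4 CPM in sham, 2.44, 1.63 and 2.18 CPM at 6 h, 1.9, 2.65 and 2.27 CPM at 24 h and 5.08, 3.87 and 4.23 CPM at 72 h. It was lower at 6 h (-0.94 ± 0.21, SE, edgeR adjusted p = 0.00316) and at 24 h (-0.80 ± 0.21, SE, edgeR adjusted p = 0.00453), and rose from 24 h to 72 h (0.94 ± 0.20, SE, edgeR adjusted p = 0.000753). The 5 mesothelial and epithelial markers summed to 5.36 to 14.6 CPM in sham, 3.41 to 16.3 CPM at 6 h and 15.8 to 52.0 CPM at 72 h.

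Itga6, the laminin receptor of endothelium and epithelia, was higher at 72 h than at 24 h. Its values were 84, 74.3 and 87 CPM in sham, 118, 95.8 and 111 CPM at 10 min, 59.6, 78.2 and 61.1 CPM at 24 h and 104, 121 and 105 CPM at 72 h. The step was 0.73 ± 0.16 (SE; edgeR adjusted p = 0.000726), and the value against sham at 72 h was 0.43 ± 0.15 (SE; edgeR adjusted p = 0.0204), which was lost without sham replicate 2 or 72 h replicate 2. At 10 min all libraries were also above all sham libraries, with a value of similar size (0.41) that was not called (edgeR adjusted p = 0.588) unless only those 6 libraries were fitted (edgeR adjusted p = 0.0182). Of 4 endothelial markers 3 were lower at 72 h, with sums of 615.5 to 833.5 CPM against 1028 to 1138 CPM in sham, whereas 3 of the 4 mesothelial and epithelial markers tested were higher. Their part in the Itga6 result was not tested.

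Itga5, the fibronectin receptor that pairs with Itgb1, had the largest early rise among matrix-binding integrins. Itga5 (ENSMUSG00000000555, chromosome 15, 103344286 to 103366763) was counted at 57.7, 47.3 and 55.3 CPM in sham and at 50.4 to 62.8 CPM at 10 min and 1 h. It reached 360.4, 146 and 267 CPM at 6 h, 161, 168 and 304 CPM at 24 h and 125, 163 and 127 CPM at 72 h. All later libraries were above all sham, 10 min and 1 h libraries, and the widest spread was at 6 h. Its log2 fold change was 2.27 ± 0.28 (SE; edgeR adjusted p = 5.79e-05) at 6 h, 1.98 ± 0.28 (SE; edgeR adjusted p = 8.19e-05) at 24 h and 1.37 ± 0.28 (SE; edgeR adjusted p = 0.000438) at 72 h. Per length, Itga5 stood at 0.515 ± 0.05 times Itga7 in sham, 2.24 ± 0.96 times at 6 h, 0.956 ± 0.24 times at 24 h and 1.97 ± 0.22 times at 72 h.

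Itgb3 and Itgav form the vitronectin receptor of macrophages and endothelium, and Itgb3 with Itga2b the fibrinogen receptor of platelets. Itgb3 was counted at 2.58, 2.7 and 3.15 CPM in sham, 5.67, 4.45 and 5.36 CPM at 10 min, 19.2, 8.95 and 8.57 CPM at 6 h, 12.3, 8.74 and 25.6 CPM at 24 h and 19.4, 26.7 and 19.4 CPM at 72 h. The 10 min libraries all exceeded sham without being called (0.87, edgeR adjusted p = 0.703), and the 1 h libraries overlapped it. The log2 fold change was 2.11 ± 0.38 (SE; edgeR adjusted p = 0.000941) at 6 h, 2.45 ± 0.38 (SE; edgeR adjusted p = 0.000156) at 24 h and 2.95 ± 0.38 (SE; edgeR adjusted p = 5.12e-06) at 72 h.

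Itgav (ENSMUSG00000027087, chromosome 2, 83724397 to 83806916) rose later, from 19.7, 22.4 and 20.9 CPM in sham to 26.5, 28.3 and 37.2 CPM at 24 h and 61.2, 78.9 and 59.6 CPM at 72 h. Neither group overlapped sham, and the log2 fold change was 0.54 ± 0.13 (SE; edgeR adjusted p = 0.0034) at 24 h and 1.66 ± 0.14 (SE; edgeR adjusted p = 6.44e-09) at 72 h. Itga2b was not called at any time. Its values were 2.38, 2.44 and 1.96 CPM in sham, 14.6, 2.39 and 3.2 CPM at 6 h and 3.69, 3.11 and 3.56 CPM at 72 h, and only 6 h replicate 1 stood well above the rest. The 5 platelet and megakaryocyte markers summed to 17.8 to 19.9 CPM in sham, 19.3 to 57.0 CPM at 6 h and 136.4 to 151.4 CPM at 72 h, where 2 were higher and 1 lower. Pf4 made up most of the sum at 72 h (135 CPM on average, from 15.3 CPM in sham), while the platelet receptor gene Gp1ba went from 2.29 to 0.584 CPM and Gp9 and Gp5 averaged 0.237 and 0.146 CPM.

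The other alphav partners diverged. Itgb5, the second most abundant beta chain per length in sham, ran from 116 to 146 CPM in 15 libraries and rose to 259.5, 286 and 307 CPM at 72 h (1.12 ± 0.10, SE, edgeR adjusted p = 1.88e-08). Itgb8, which with Itgav binds and activates latent TGF-beta, was counted at 1.01, 1.4 and 1.47 CPM in sham, 1.94, 1.88 and 2.11 CPM at 24 h and 5.17, 5.39 and 5.16 CPM at 72 h. Its 72 h libraries were above all others (2.01 ± 0.26, SE, edgeR adjusted p = 1.73e-06).

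Itgb6, the epithelial chain with the same TGF-beta ligand, fell instead. It was at 15.4, 11.7 and 13.8 CPM in sham, 8.21, 9.89 and 12.9 CPM at 1 h, 5.18, 5.55 and 4.42 CPM at 6 h, 5.7, 6.3 and 1.6 CPM at 24 h and 7.48, 7.06 and 6.4 CPM at 72 h. From 6 h on it did not overlap sham, and the log2 fold change was -1.43 ± 0.30 (SE; edgeR adjusted p = 0.00229) at 6 h, -1.57 ± 0.30 (SE; edgeR adjusted p = 0.000622) at 24 h and -0.97 ± 0.29 (SE; edgeR adjusted p = 0.00709) at 72 h. Itga8, the nephronectin receptor of smooth muscle and fibroblasts, was also lower at all 3 times. It was at 4.45, 6.28 and 6.97 CPM in sham, 2.68, 2.06 and 1.65 CPM at 6 h, 3.24, 2.87 and 1.6 CPM at 24 h and 2.71, 4.2 and 3.02 CPM at 72 h, with no overlap. The fitted log2 fold change was -1.47 ± 0.25 (SE; edgeR adjusted p = 0.000388), -1.19 ± 0.24 (SE; edgeR adjusted p = 0.000881) and -0.83 ± 0.24 (SE; edgeR adjusted p = 0.00463).

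Itga9, the tenascin C and Vcam1 receptor, ran from 41.4 to 70.9 CPM and was not called at any time. Itgb1, the partner of most matrix-binding alpha chains, was the most counted integrin in every group and changed by less than 2-fold. Its values were 420.2, 420.4 and 431 CPM in sham, 713, 581 and 574 CPM at 6 h, 738, 685 and 741 CPM at 24 h and 656, 848 and 699 CPM at 72 h. Every library from 6 h on was above every earlier one, with log2 fold changes of 0.55 ± 0.11 (SE; edgeR adjusted p = 0.00133), 0.77 ± 0.11 (SE; edgeR adjusted p = 4.75e-05) and 0.79 ± 0.11 (SE; edgeR adjusted p = 5.25e-06).

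**Figure D3:**
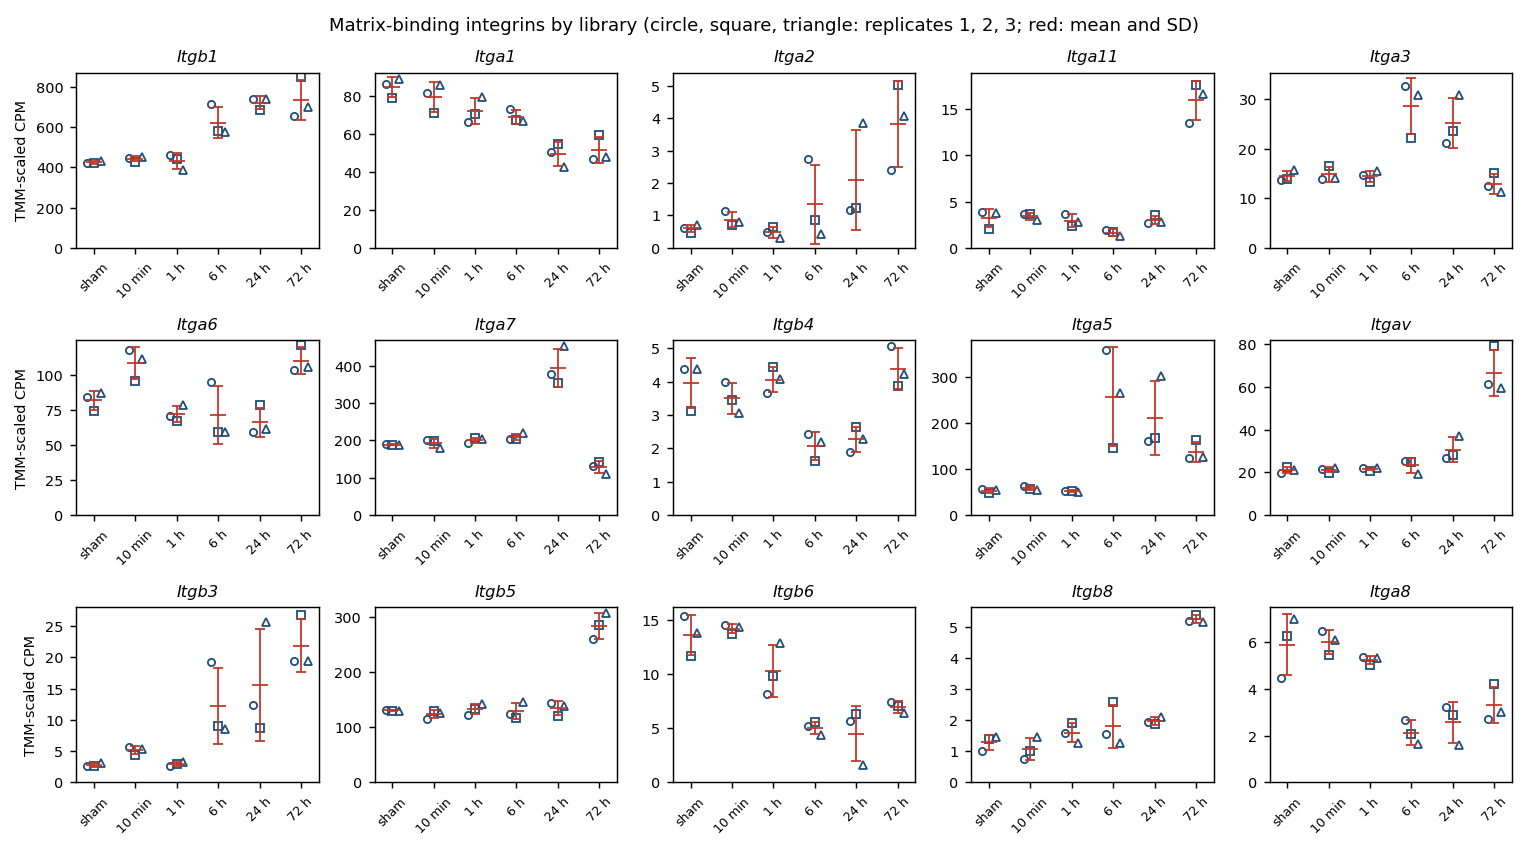
TMM-scaled CPM of 15 matrix-binding integrins (y axis, linear from 0) in the 18 libraries by group (x axis); symbols are replicates 1 to 3, and red marks the mean and SD of 3 mice. Itga7 is highest at 24 h (354 to 452 CPM), Itga5 from 6 h on, and Itgb5, Itgb8 and Itga11 at 72 h.

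As a share of the summed per-length level of 8 beta chains, Itgb1 took 70.2% ± 0.34 (SD, n = 3) in sham and 57.9% ± 2.29 at 72 h. Itgb2 went from 1.25% ± 0.14 to 11.7% ± 0.43, and Itgb5 from 26.3% ± 0.42 to 16.5% ± 1.11 at 24 h and back to 27.4% ± 2.54 at 72 h. Among the alpha chains, Itga7 led in sham with 36.4% ± 1.39 and held 16.1% ± 1.57 at 72 h. Itga5 took 18.7% ± 1.33 in sham, 48.3% ± 9.53 at 6 h and 31.4% ± 1.03 at 72 h. Itgam took 0.62% ± 0.07 in sham and 8.98% ± 0.56 at 72 h, with all 5024 exon bases as its length. As that length is uncertain, so is the size of the alpha chain shares. The ranges of these sham and 72 h shares did not overlap except for Itgb5. Shares are descriptions of RNA and were not tested; they do not count receptors.

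**Figure D4:**
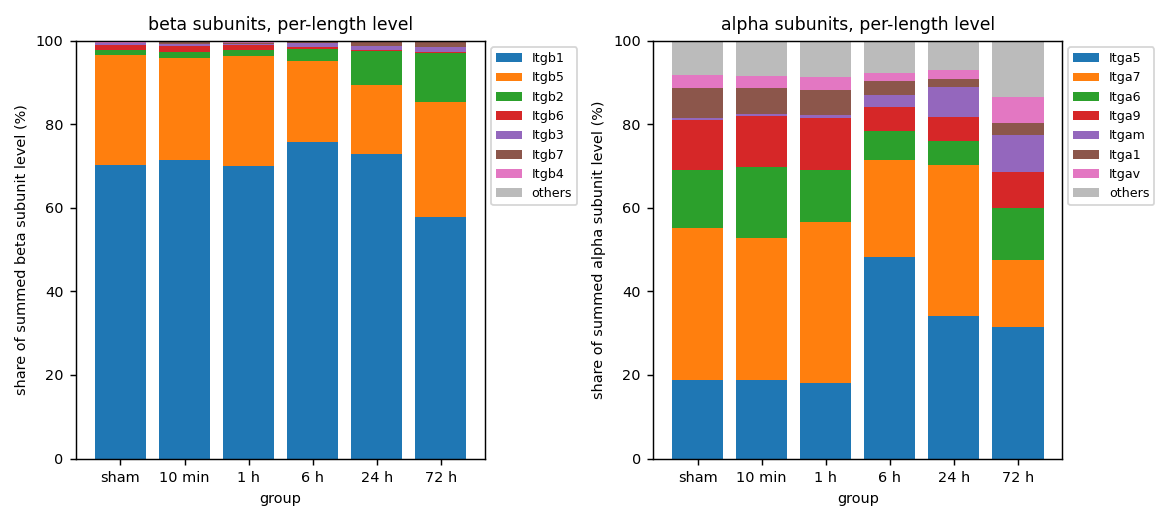
Mean share (%) of the summed per-length level taken by each beta chain (left) and alpha chain (right) in the 6 groups of 3 mice; the less abundant chains are joined as others. The Itgb2 share grew from 1.25% in sham to 11.7% at 72 h, and Itga5 took 48.3% of the alpha chain level at 6 h.

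Kindlins and talins split by isoform at 72 h. Fermt3, the kindlin of blood cells (ENSMUSG00000024965, chromosome 19, 6998958 to 7019469), was counted at 5.05, 5.7 and 4.8 CPM in sham, 11.1, 7.85 and 7.67 CPM at 6 h, 15.4, 15.6 and 30.9 CPM at 24 h and 60.1, 53.3 and 58.8 CPM at 72 h. All libraries from 6 h on exceeded all sham libraries. The log2 fold change was 1.99 ± 0.24 (SE; edgeR adjusted p = 1.36e-05) at 24 h and 3.47 ± 0.25 (SE; edgeR adjusted p = 3.22e-09) at 72 h; the value at 6 h (0.77 ± 0.25, SE, edgeR adjusted p = 0.0274) was lost without 6 h replicate 1, sham replicate 1 or sham replicate 3. Against Ptprc, the per-length ratio of Fermt3 was 5.82 ± 0.52 in sham and 4.51 ± 0.57 at 72 h, or 2.6 ± 0.23 and 2.02 ± 0.25 with the annotated exon length, which is 5784 bp against the 2587 bp recovered from the files.

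Fermt2, the kindlin of muscle, fibroblasts and most other cells (ENSMUSG00000037712, chromosome 14, 45458795 to 45530118), rose early and then fell. It was counted at 171, 172 and 173 CPM in sham, 324, 235 and 268 CPM at 6 h, 209, 183 and 272 CPM at 24 h and 112, 123 and 100.3 CPM at 72 h. The 6 h libraries lay above all sham libraries and the 72 h libraries below them. The log2 fold change was 0.68 ± 0.13 (SE; edgeR adjusted p = 0.000963) at 6 h, 0.36 ± 0.13 (SE; edgeR adjusted p = 0.0312) at 24 h and -0.63 ± 0.13 (SE; edgeR adjusted p = 0.000358) at 72 h, and from 24 h to 72 h it was -0.99 ± 0.13 (SE; edgeR adjusted p = 6.12e-06). The call at 24 h was lost without any 1 of the sham libraries or without replicate 3 of that group. The per-length ratio of Fermt3 to Fermt2 was 0.0436 ± 0.0039 in sham, 0.0466 ± 0.0045 at 6 h, 0.132 ± 0.03 at 24 h and 0.752 ± 0.112 at 72 h. With annotated exon lengths it was lower throughout, at 0.027 ± 0.0024 in sham and 0.466 ± 0.07 at 72 h, so the size of the ratio depends on the length used and its change between groups does not.

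Tln1, the talin of most cells including leukocytes and platelets, was counted at 164, 165 and 175 CPM in sham, 220.3, 171 and 203 CPM at 6 h, 246, 271 and 316 CPM at 24 h and 251, 305 and 239 CPM at 72 h. It rose at 24 h (0.72 ± 0.11, SE, edgeR adjusted p = 9.9e-05) and 72 h (0.66 ± 0.11, SE, edgeR adjusted p = 5.6e-05), without overlap. Tln2, the talin enriched in striated muscle, was at 83, 89 and 83 CPM in sham, 84.3, 77.8 and 49.4 CPM at 24 h and 64.3, 63.9 and 53.4 CPM at 72 h. It fell at 72 h (-0.49 ± 0.14, SE, edgeR adjusted p = 0.00627), but with library size scaling its value was 0.1 and not called. The per-length ratio of Tln1 to Tln2, which no scaling affects, was 3.71 ± 0.23 in sham and 8.21 ± 0.82 at 72 h.

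Ilk, the pseudokinase scaffold, was not called against sham at any time. It was counted at 3.08, 2.33 and 2.53 CPM in sham, 2.22, 2.13 and 1.69 CPM at 1 h, 3.34, 3.3 and 2.66 CPM at 6 h, 2.5, 3.33 and 3.04 CPM at 24 h and 3.15, 3.11 and 2.1 CPM at 72 h. A rise from 1 h to 6 h (0.62 ± 0.21, SE, edgeR adjusted p = 0.0421) was lost in 5 of 6 fits without 1 of these libraries and by DESeq2. Of its 2744 exon bases, 2461 are shared with Taf10 or Rrp8 on the opposite strand, Taf10 received 16972 counts against 1082 for Ilk, and the level of Ilk is therefore uncertain.

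**Figure D5:**
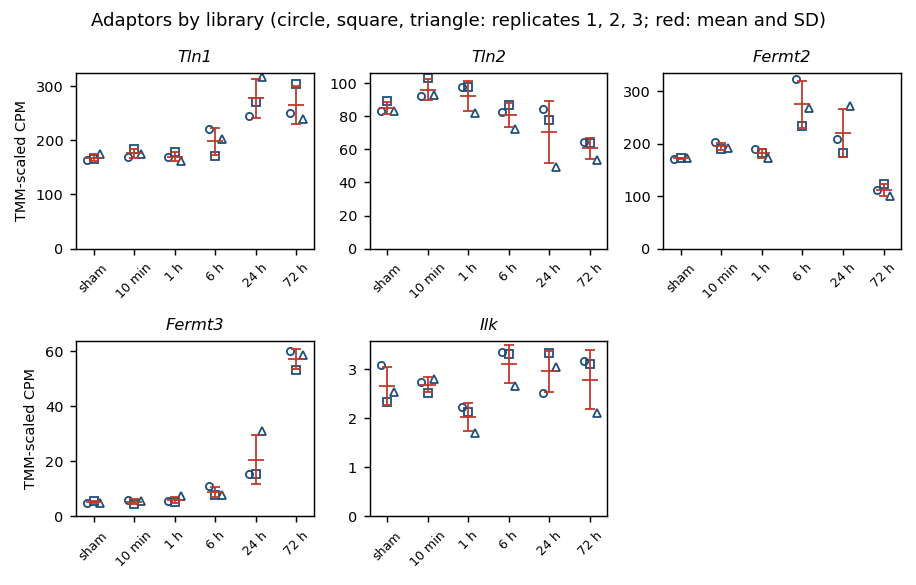
TMM-scaled CPM of the 5 adaptors (y axis, linear from 0) in the 18 libraries by group (x axis); symbols are replicates 1 to 3, and red marks the mean and SD of 3 mice. Fermt3 rises to 53.3 to 60.1 CPM at 72 h while Fermt2 drops to 100.3 to 123 CPM, and Ilk stays under 3.4 CPM.

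Between consecutive times, members moved at every step after 1 h. From 10 min to 1 h, 0 of 31 were called by edgeR or by DESeq2, against 0.307% of all genes (0.251% higher, 0.0552% lower); 2 members and 1212 of all genes had an unadjusted p under 0.05. Itga6 and Itgb3 were called lower in that step when just its 6 libraries were fitted, against 1.71% of all genes. From 1 h to 6 h, 9 rose and 4 fell, against 14.5% and 10% of all genes. From 6 h to 24 h, 10 rose and 2 fell, against 14.2% and 13.7%, but only 2 (Itga7 and Itgb7) were called when the fit held just the 6 libraries compared, against 6.91% of all genes. From 24 h to 72 h, 10 rose and 3 fell, against 24.4% and 26.1% (20 and 3 with library size scaling, against 44.7% and 10.1%). The members that fell in the last step were Itga7, Itga3 and Fermt2. Over the whole course, 27 of 31 members passed edgeR's F test over the 6 groups, against 78.4% of all genes; Itga9, Itga10, Itga2b and Ilk did not pass it, and Itgad passed it without a call in any single comparison with sham.

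The genes around the receptors were read from lists of 39 signalling and adhesion-site genes and 30 ligands. Of the 39, 20 rose and 3 fell at 6 h, 24 and 4 at 24 h, and 22 and 8 at 72 h, with medians of 0.40, 0.46 and 0.49. As shares these are 51.3% and 7.69%, 61.5% and 10.3%, and 56.4% and 20.5%, beside 16.3% and 12.2%, 23.7% and 20.2%, and 34.2% and 32.2% of all genes, whose medians were -0.01, 0.01 and 0.03. By smallest edgeR adjusted p at 72 h, those that rose were Tns3, a tensin that links beta tails to actin (log2 fold change 2.08), Fyb, the adaptor ADAP of T cells and myeloid cells (4.43), and Skap2, its myeloid partner (2.42). Those that fell were Lims2, the PINCH partner of ILK (-2.15), Tns2, another tensin (-1.28), and Rasgrp2, the Rap1 activator of platelets (-1.67).

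Of the 28 ligands tested, 11 rose and 4 fell at 6 h, 15 and 5 at 24 h, and 20 and 5 at 72 h, with medians of 0.22, 0.61 and 1.28. As shares these are 39.3% and 14.3%, 53.6% and 17.9%, and 71.4% and 17.9%, to be read beside the same shares and medians of all genes. At 1 h 1 ligand, Ccn1, an immediate early matricellular protein, was higher (3.06). At 72 h the smallest edgeR adjusted p among increases belonged to Emilin1, an elastic fibre protein bound by alpha9 and alpha4 integrins (2.71), Postn, which codes for periostin (6.21), and Col1a1 of type I collagen (5.58). Among decreases they belonged to basement membrane laminin chains Lama5 (-1.07) and Lamb2 (-1.17) and to vitronectin, Vtn (-1.58).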

How the data were processed

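The deposited files hold read counts per Ensembl gene, made by the authors and given as whole numbers, and the deposited FPKM values, which are the same counts per kilobase of gene and per library total. Per the submitters' processing notes, mm10, cutadapt 1.18, HISAT2 2.1.0 and featureCounts were used; the strand setting is not given in the sources used here. Series and sample tables agreed (0 values differed, 0 columns unmatched), but the FPKM columns of 6 h replicates 2 and 3 held each other's counts and were set back by library. Gene lengths recovered from counts and FPKM equalled GENCODE M21 (GRCm38) exon lengths for 28019 of 30489 genes and 26 of 31 members (not Itgb7, Itga5, Itgb5, Fermt2 and Fermt3); levels per length use the recovered lengths.

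Counts of the 18 libraries were fitted in R 4.3.3 with edgeR 4.0.16 (filterByExpr, which removed 14272 genes; TMM; robust quasi-likelihood, 1 mean per group; two-sided). P-values were adjusted by the Benjamini-Hochberg method over 16311 genes, with calls under 0.05; the biological coefficient of variation was 0.149. The SE is the absolute log2 fold change over the square root of the quasi-likelihood F. DESeq2 1.42.0, limma 3.58.1 on log2(FPKM + 1), other scalings and filters, a replicate block, fits of only the 6 libraries compared and fits without each library were alternatives. Replicate numbers were not used as pairs in the main fit: same-numbered libraries correlated between -0.256 and 0.252. From 10 min to 1 h and from 1 h to 6 h, every library correlated most with its same-numbered one, though weakly (0.0461 to 0.0967). In each other comparison this did not hold for all replicates. Where each sham library held 1 to 3 counts, the ratio of summed counts is given with an exact 95% interval (Clopper-Pearson, conditional on the total), which covers counting error only, as reads were counted without molecular identifiers.

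Members, classes, lists and markers were chosen with earlier results of these data known. Values in every library were due to called members with 1 of the 6 largest changes in their class (Itgax, Itgam, Itgb2, Itgb7, Itga4 and Itgae; Itgb3, Itga2, Itga11, Itga5, Itgb8 and Itgav) and to all adaptors; those of other members were added after their values were seen. Of the signalling and ligand lists, the 3 genes with the smallest adjusted p in each direction at 72 h were named. Promoters are from a RefSeq table (GRCm38.p6), matched by symbol for 22 members.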

Additional observations from a re-analysis of the deposited data

Results flagged for a closer look

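There were 3 members called higher than sham at one time and lower at another, and for each the later times also differed from one another. Itga11 was lower than sham at 6 h and higher at 72 h, and its log2 fold change from 24 h to 72 h was 2.40. Itga7 was higher than sham at 24 h and lower at 72 h, with a step of -1.62. Fermt2 was higher at 6 h and 24 h and lower at 72 h, with a step of -0.99. The step given for each member is the one between consecutive times with its smallest edgeR adjusted p. Each was called, but because it was picked by that same test, its call adds no support. The decreases of Itga7 and Fermt2 at 72 h against sham were not called with library size scaling.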

How the results depend on the processing

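Counts of called members against sham ran, without each of the 18 libraries in turn, from 0 to 0 at 10 min and 1 h, 12 to 18 at 6 h, 17 to 21 at 24 h and 23 to 24 at 72 h; from 0 to 1 between 10 min and 1 h, 10 to 16 between 1 h and 6 h, 8 to 13 between 6 h and 24 h and 12 to 19 between 24 h and 72 h; and from 27 to 28 by the F test over all groups. In fits of only the 6 libraries compared, 3 members were called at 10 min, 2 between 10 min and 1 h and 2 between 6 h and 24 h. Between 24 h and 72 h, 23 were called with library size scaling, 24 by limma on log2(FPKM + 1) and 20 without 6 h replicate 1 and 24 h replicate 3; the last setting gave 2 between 10 min and 1 h. The cause of these differences was not tested. For DESeq2, limma, the replicate block and the fits without libraries, shares of all genes were not computed. Counts of members under these settings, here and above, therefore cannot be set against all genes. With the replicate block, counts were 0, 0, 16, 21 and 24 against sham in order of time. They were 0, 14, 11 and 13 between consecutive times, and 28 by the F test. The step of Itgam from 6 h to 24 h lost its call.

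Directions turned in the following cases. At 72 h against sham, library size scaling gave 0.096 for Tln2, 0.025 for Itga7 and 0.42 for Itga3, and limma gave 0.076, 0.019 and 0.30. The FPKM values used by limma are also scaled by library total. From 24 h to 72 h, Tln1 was 0.32 with library size scaling and 0.32 by limma, and Itgam ran from -0.61 (without 24 h replicate 2) to 0.75 (without 24 h replicate 3, and also without that and 6 h replicate 1). Low members are limited by depth: a minimum of 10 counts in every library left 27 members tested, without Itgae, Itgad, Itga2 and Itgax.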
